A study of Homo sapiens with 8 samples.

Results

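Alveolar lineage genes were followed across ALK inhibitor resistance in 9 genes: the transcription factors NKX2-1, FOXA1, FOXA2 and GATA6, the alveolar type 2 cell products SFTPB, NAPSA, SLC34A2 and LAMP3, and HOPX, a marker of alveolar type 1 cells. The genes were chosen by name, with earlier results of these data known, and their rows were found by matching gene identifiers to GENCODE symbols. All 9 were present among the 43869 genes of the table, and 92 of its 126470 H3K27ac peaks were paired with them, each peak lying within 20 kb of the gene.

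The cells were H3122, a lung adenocarcinoma cell line driven by an EML4-ALK fusion. Naive cells were compared with 3 lines derived from them by growth in rising inhibitor concentrations: erCriz0, kept in 0.5 µM crizotinib, erAlec0, kept in 2 µM alectinib, and erLor0, kept in 2 µM lorlatinib. Inhibitor was withdrawn for 48 h before RNA was taken. Chromatin carrying H3K27ac, an acetyl mark on histone H3 and a sign of active promoters and enhancers, was sequenced from the same lines. For the chromatin no withdrawal is stated. Each line gave 1 RNA library and 1 H3K27ac library in the table, so no test was possible and every difference below compares those libraries. Each inhibitor is represented here by a single line (a second crizotinib line, erCriz1, and a second lorlatinib line, erLor1, are not analysed here), the labels name DMSO as vehicle, and in bulk RNA fewer expressing cells and less RNA per cell cannot be told apart.

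In the lung, NKX2-1 is the homeodomain factor that directs surfactant gene expression, and it works together with the forkhead factors FOXA1 and FOXA2, which open chromatin, and with the zinc finger factor GATA6. Alveolar type 2 cells make and store surfactant: SFTPB encodes surfactant protein B, NAPSA the protease napsin A that takes part in its maturation, SLC34A2 a sodium-phosphate cotransporter of the apical membrane, and LAMP3 a membrane protein of lamellar bodies. Alveolar type 1 cells are the flat gas-exchange cells, and HOPX, an atypical homeodomain protein that does not bind DNA, marks them. NKX2-1, napsin A and the SLC34A2 protein are also familiar markers of lung adenocarcinoma.

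The H3K27ac peaks that hold the 5 stretches of regulatory sequence below passed the 2-fold limit in at least 1 line. Windows before a start were taken for genes whose RNA or gene-start peak was at least 2-fold above naive cells in a line. Whole peaks were taken if they had at most 300 bases and were at least 2-fold above naive cells in a line. Stretches over an annotated untranslated region were left out, among them a 229-base LAMP3 peak. The 5 stretches are given 5′ to 3′ on the strand named, in hg38 coordinates. Capitals mark matches, on either strand, to 6 short words of the factor families: CAAGTG and CTCAAG for NKX2-1, TGTTTAC and TATTTAC for FOXA, and AGATAA and TGATAA for GATA. The first 2 sequences are RefSeq windows (GRCh38.p14) of the 250 bases before a transcript start, and the last 2 are whole peaks. The HOPX stretch is the 250 bases before its start in GENCODE 44, at 56681877. Its last bases, as printed, lie inside the slightly longer gene model of the table.
SLC34A2, chr4:25656214-25656463, plus strand: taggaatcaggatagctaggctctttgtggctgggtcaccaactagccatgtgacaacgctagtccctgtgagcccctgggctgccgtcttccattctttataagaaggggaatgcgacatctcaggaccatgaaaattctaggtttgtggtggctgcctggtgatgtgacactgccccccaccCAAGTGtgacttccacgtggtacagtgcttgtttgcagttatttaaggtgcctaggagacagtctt
SFTPB, chr2:85668742-85668991, minus strand: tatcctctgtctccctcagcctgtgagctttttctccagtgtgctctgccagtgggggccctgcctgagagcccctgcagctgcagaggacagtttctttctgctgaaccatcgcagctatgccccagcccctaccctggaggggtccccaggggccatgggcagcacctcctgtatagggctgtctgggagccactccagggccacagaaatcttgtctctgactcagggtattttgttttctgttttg
HOPX, chr4:56681878-56682127, minus strand: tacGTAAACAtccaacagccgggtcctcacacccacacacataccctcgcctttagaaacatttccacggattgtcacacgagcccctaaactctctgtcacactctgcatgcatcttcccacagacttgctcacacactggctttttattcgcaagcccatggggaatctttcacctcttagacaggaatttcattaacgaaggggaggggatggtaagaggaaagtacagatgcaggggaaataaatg
GATA6 upstream peak, chr18:22165235-22165469, plus strand: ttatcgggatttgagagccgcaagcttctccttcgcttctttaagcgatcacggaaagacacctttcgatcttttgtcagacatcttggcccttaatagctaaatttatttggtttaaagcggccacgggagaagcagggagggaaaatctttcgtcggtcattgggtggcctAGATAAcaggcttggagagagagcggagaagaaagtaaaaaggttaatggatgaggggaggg
SFTPB intron peak, chr2:85667807-85668065, plus strand: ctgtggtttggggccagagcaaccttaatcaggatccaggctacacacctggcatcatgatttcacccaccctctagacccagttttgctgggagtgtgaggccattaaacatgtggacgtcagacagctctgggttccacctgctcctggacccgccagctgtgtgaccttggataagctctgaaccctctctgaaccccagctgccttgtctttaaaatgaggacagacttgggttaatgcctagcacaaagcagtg

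The SLC34A2 window held 1 CAAGTG, the HOPX window 1 TGTTTAC read on the other strand, and the GATA6 peak 1 AGATAA. The 2 SFTPB sequences held none of the 6 words. These words are common: among 35116 RefSeq promoter windows, 9.50% held CAAGTG, 10.4% CTCAAG, 2.98% TGTTTAC, 2.39% TATTTAC, 9.17% AGATAA and 6.66% TGATAA. Of the 28759 peaks of 200 to 300 bases, 17.4% held CAAGTG, 18.1% CTCAAG, 3.03% TGTTTAC, 3.03% TATTTAC, 12.04% AGATAA and 9.63% TGATAA. A match describes the letters of the window and not the binding of a factor. RefSeq windows were matched for 7 of the 9 genes, and FOXA2 and LAMP3 had no entry.

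Values are regularized log (rlog) levels on a log2 scale, and a change is the level in a resistant line minus that in naive cells. A gene was counted as expressed if it reached log2 of 25, or 4.64, in any line. Genes that were up and peaks that rose had a change of 1 or more, which is 2-fold. Genes that were down and peaks that fell had a change of -1 or less. Higher and lower alone mean any difference, whatever its size. Of the 9 genes, 6 were expressed: NKX2-1, FOXA1, GATA6, SLC34A2, LAMP3 and HOPX. Each of these also passed the limit in naive cells. FOXA2, SFTPB and NAPSA stayed under it in all 4 lines.

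**Figure D1:**
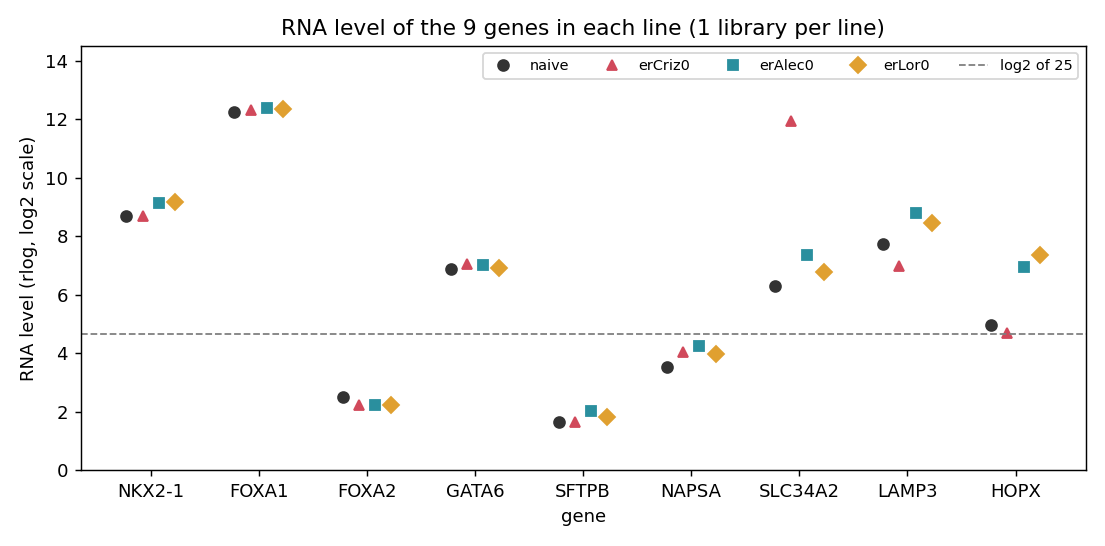
RNA level (rlog, log2 scale) of each gene in naive cells and the 3 resistant lines, 1 point per library, with the expression limit as a dashed line. SLC34A2 stands far above its other values in erCriz0 (11.92), HOPX is higher in erAlec0 and erLor0, and FOXA2, SFTPB and NAPSA lie under 4.64 in every line.

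For a rough comparison of genes, log2 of the exon length in kb was subtracted from the rlog level. On this log2 scale FOXA1 was the most abundant of the 9 in naive cells, at 10.11. Exon length joins the exons of all annotated transcripts of a gene (7.73 kb for HOPX), and the transcript expressed was not determined. NKX2-1 followed at 7.02, LAMP3 at 5.81, GATA6 at 4.96, SLC34A2 at 3.97 and HOPX at 2.01. The factors NKX2-1, FOXA1 and GATA6 were thus accompanied by little RNA of SFTPB (-0.40) and NAPSA (1.69). In erCriz0, SLC34A2 reached 9.58 on this scale, above NKX2-1 (7.01) and next to FOXA1 (10.18).

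Among the factors, the RNA of none passed the 2-fold limit in any line. NKX2-1 (chr14:36516392-36521149, minus strand) had RNA levels of 8.68 in naive cells, 8.67 in erCriz0, 9.13 in erAlec0 and 9.18 in erLor0. The naive and erCriz0 libraries were nearly level, and erAlec0 and erLor0 lay 0.45 and 0.50 above naive cells. Reads of NKX2-1 may overlap those of SFTA3 on the same strand and NKX2-1-AS1 on the other, and although strandedness was checked with RSeQC, the strand setting of the counting is not given in the sources used here.

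FOXA1 (chr14:37589552-37596059, minus strand) had levels of 12.25, 12.32, 12.39 and 12.36 in naive, erCriz0, erAlec0 and erLor0 cells. GATA6 (chr18, plus strand) had levels of 6.89, 7.04, 7.01 and 6.91 in the same order. For both genes the 4 libraries stayed within 0.15 of one another, the narrowest ranges of the 9 genes. FOXA2 was low throughout, at 2.50, 2.24, 2.23 and 2.24.

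The H3K27ac peaks of the factors varied more than their RNA. Beside NKX2-1, a domain of 26521 bases over the gene start (chr14:36499429-36525949) had H3K27ac levels of 13.10 in naive cells, 13.48 in erCriz0, 14.00 in erAlec0 and 13.97 in erLor0. The peak 16222 bases upstream of the gene (chr14:36537371-36537953) had the highest change of the 4 NKX2-1 peaks, from 4.84 to 6.47 in erAlec0, with 4.63 in erCriz0 and 5.18 in erLor0. The lowest change, -0.21, was at the same peak in erCriz0. Over the 4 peaks the median changes in erCriz0, erAlec0 and erLor0 were -0.16, 1.09 and 0.89, while the median of the other peaks within 5 Mb was -0.35, -0.07 and -0.27. Of the 4 peaks, 3 rose in erAlec0 and 1 in erLor0, where 14.1% and 7.45% of all peaks rose. All 4 peaks were also paired with other genes, among them SFTA3.

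FOXA1 also lies under a broad domain, of 14979 bases (chr14:37582557-37597535), with H3K27ac levels of 13.43, 13.70, 13.85 and 13.84 in naive, erCriz0, erAlec0 and erLor0 cells. Its change of 0.42 in erAlec0 was the highest of the 5 FOXA1 peaks, and the lowest was -0.93 in erCriz0, at chr14:37581181-37581877 downstream of the gene. No FOXA1 peak passed the limit in any line. All 5 were also paired with TTC6, an expressed gene that overlaps FOXA1 on the other strand. Across the genome, the peaks with H3K27ac levels of 6.94 or more had median changes of 0.28, 0.16 and 0.28 in erCriz0, erAlec0 and erLor0, and the part of this in the change of the domains was not tested.

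At GATA6 the RNA was level while nearby H3K27ac was higher in erAlec0. The peak 4495 bases upstream of the gene (chr18:22162867-22164897) had levels of 4.43 in naive cells, 4.42 in erCriz0, 6.95 in erAlec0 and 4.66 in erLor0. Its change of 2.53 in erAlec0 was the largest of any peak paired with the 9 genes, while erCriz0 and erLor0 differed from naive cells there by -0.01 and 0.23. The 235-base peak printed above went from 1.01 to 2.35 in erAlec0, both under the minimum of 15 reads (3.91), with 1.23 in erCriz0 and 1.36 in erLor0. The peak over the gene start changed less, from 8.07 in naive cells to 8.48, 8.77 and 8.35 in erCriz0, erAlec0 and erLor0. The -0.01 in erCriz0 was the lowest change of the 4 GATA6 peaks. Other peaks within 5 Mb had a median change of 0.64 in erAlec0.

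FOXA2, whose RNA was under the expression limit, had peaks that differed in direction between lines. The peak over its start (chr20:22584684-22586710) had H3K27ac levels of 6.16 in naive cells, 7.11 in erCriz0, 5.49 in erAlec0 and 5.25 in erLor0. The change of 0.96 in erCriz0 was the highest of the 5 FOXA2 peaks, and the lowest was -1.26 in erLor0, at chr20:22583988-22584587. All 5 peaks were higher in erCriz0 and lower in erAlec0 and erLor0, and the last-named peak was the only one to pass the limit. Other peaks within 5 Mb had a median change of 0 in all 3 lines.

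SLC34A2 (chr4:25648011-25678748, plus strand) had the largest RNA change of all 12701 expressed genes in erCriz0. Its RNA levels were 6.30 in naive cells, 11.92 in erCriz0, 7.37 in erAlec0 and 6.76 in erLor0. The erCriz0 library stood apart, 5.62 above naive cells on the log2 scale or 49.1-fold, while erAlec0 was 2.09-fold and erLor0 1.38-fold above naive cells. The order was erCriz0, erAlec0, erLor0 and naive, and erAlec0 passed the limit narrowly with a change of 1.07.

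The 15 SLC34A2 peaks changed far less than its RNA. The peak that spans 5 transcript starts (chr4:25654650-25657395), which contains the sequence shown, had H3K27ac levels of 6.45 in naive cells, 7.90 in erCriz0, 7.07 in erAlec0 and 6.78 in erLor0. The next peak, in an intron (chr4:25657503-25658880), had the highest change, from 5.18 to 6.64 in erCriz0, with 5.71 in erAlec0 and 4.97 in erLor0. In erCriz0, where 7.00% of all peaks rose, 4 of the 15 peaks rose and 12 of 15 were higher. The 4 that rose all lay inside the gene, where most of the higher peaks lay. The 3 peaks upstream of the gene did not share this: at chr4:25635809-25638936 the level was 7.95 in naive cells, 7.73 in erCriz0, 6.79 in erAlec0 and 6.92 in erLor0. Its change of -1.16 in erAlec0 was the lowest of the 15, and it fell in erLor0 as well (-1.04). The 15 peaks had median changes of 0.66, -0.15 and -0.19 in erCriz0, erAlec0 and erLor0, against 0.10, 0.22 and 0.10 for other peaks within 5 Mb. No peak covered the GENCODE gene start.

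**Figure D2:**
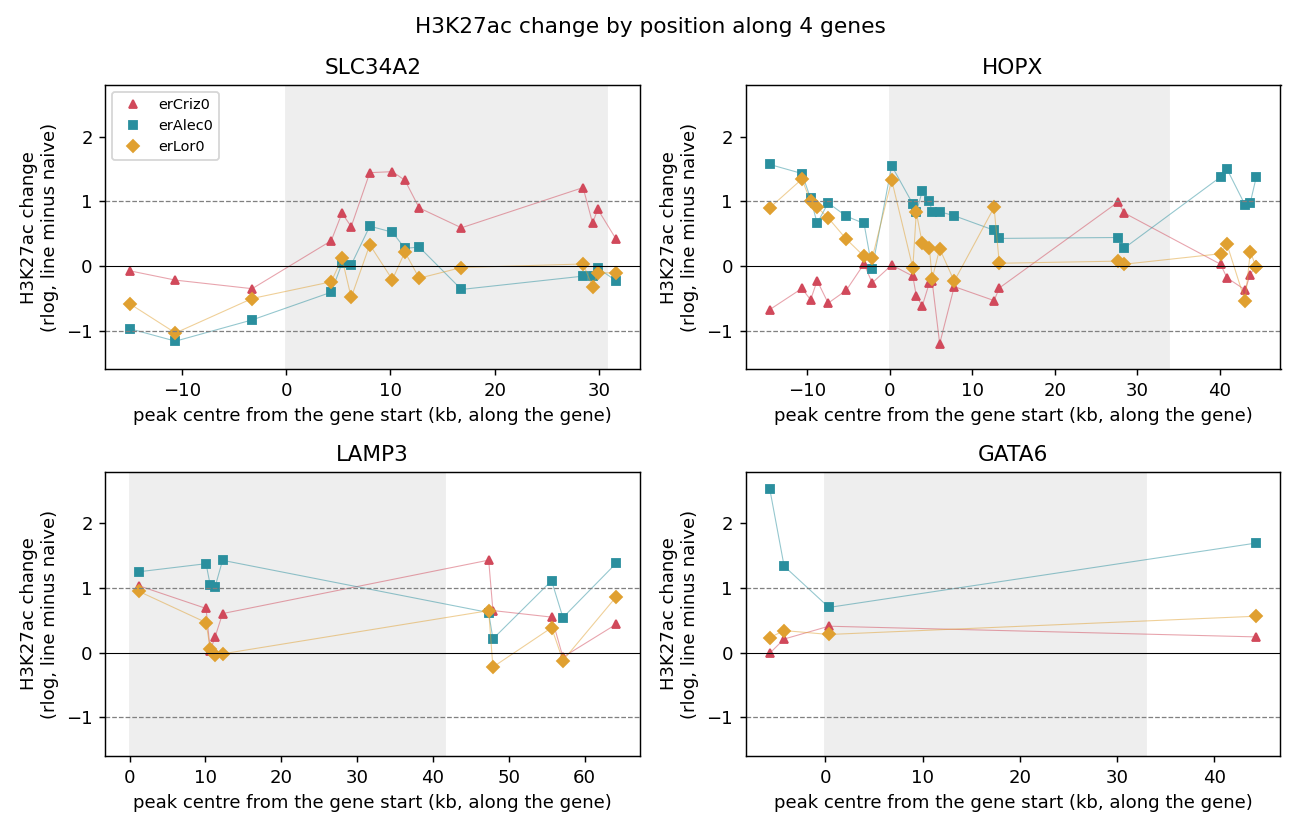
H3K27ac change (rlog, line minus naive) of each paired peak against the distance of its centre from the gene start in kb, for SLC34A2, HOPX, LAMP3 and GATA6, with the gene body shaded, 1 point per peak and line, and dashed lines at the limits of 1 and -1. SLC34A2 peaks above 1 lie inside the gene and belong to erCriz0, HOPX peaks above 1 belong to erAlec0 and erLor0, and the highest point is the GATA6 upstream peak in erAlec0 (2.53).

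LAMP3 (chr3:183122215-183163839, minus strand) had RNA levels of 7.73 in naive cells, 6.99 in erCriz0, 8.80 in erAlec0 and 8.44 in erLor0. LAMP3 was up in erAlec0 (1.07), and its changes against naive cells of -0.74 (erCriz0) and 0.71 (erLor0) did not reach the limit. The erCriz0 library was the lowest and erAlec0 the highest, a span of 1.81. All 10 LAMP3 peaks were higher in erAlec0, and 7 of them rose, where 14.1% of all peaks rose.

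Within LAMP3, an intron peak (chr3:183150973-183152179) had H3K27ac levels of 5.29 in naive cells, 5.89 in erCriz0, 6.72 in erAlec0 and 5.27 in erLor0. The highest change of the 10 peaks was instead in erCriz0, from 3.55 to 4.98 at chr3:183116254-183116703 downstream of the gene, and the lowest change was -0.22 in erLor0 at chr3:183115803-183116036. The median changes were 0.58, 1.08 and 0.22 in erCriz0, erAlec0 and erLor0, against 0.02, 0.13 and 0.09 for other peaks within 5 Mb. In erCriz0, then, 9 of 10 LAMP3 peaks were higher than in naive cells while the RNA was lower. Of these, 2 peaks rose, where 7.00% of all peaks rose, and the RNA change of -0.74 was inside the limit. Of the 10 peaks, the 5 downstream were also paired with MCCC1.

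SFTPB and NAPSA, the remaining type 2 products, stayed under the expression limit. SFTPB (chr2:85657314-85668741, minus strand) had RNA levels of 1.64 in naive cells, 1.66 in erCriz0, 2.03 in erAlec0 and 1.81 in erLor0. The peak over its start (chr2:85668264-85669493) nonetheless had H3K27ac levels of 5.004 in naive cells, 6.66 in erCriz0, 5.15 in erAlec0 and 5.13 in erLor0. Only the erCriz0 library stood apart, with the highest change of the 6 SFTPB peaks, 1.66. The intron peak shown above went from 2.99 to 4.11 in erCriz0, against 3.12 in erAlec0 and 2.78 in erLor0. Another SFTPB peak, at chr2:85667014-85667336, also rose there, from 2.62 to 3.82. The lowest change, -0.39, was in erCriz0 at chr2:85652377-85652567 downstream of the gene. RNA of SFTPB in erCriz0 differed from naive cells by 0.02. Of the 6 SFTPB peaks, 5 were also paired with USP39, an expressed gene, the start peak among them.

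NAPSA (chr19, minus strand) had RNA levels of 3.53 in naive cells, 4.04 in erCriz0, 4.23 in erAlec0 and 3.97 in erLor0. All 18 of its peaks were also paired with NR1H2, an expressed gene that overlaps it on the other strand, so neither its reads without strand nor its peaks can be assigned to NAPSA alone. The peak over its start (chr19:50365031-50366500) had levels of 6.83, 5.97, 6.74 and 6.27 in naive, erCriz0, erAlec0 and erLor0 cells. The highest change, 0.75, was at chr19:50357217-50358139 in erCriz0, and the lowest, -1.16, at chr19:50381099-50381940 in erAlec0. The latter was the single NAPSA peak past the limit.

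HOPX (chr4:56647988-56681899, minus strand) was up in the alectinib and lorlatinib lines. Its RNA levels were 4.96 in naive cells, 4.70 in erCriz0, 6.95 in erAlec0 and 7.37 in erLor0. The naive and erCriz0 libraries lay near the expression limit, and erAlec0 and erLor0 were 3.96-fold and 5.29-fold above naive cells. Among 12701 expressed genes HOPX ranked 25 by its change in erAlec0 and 3 in erLor0. A change in erCriz0 of -0.26 did not reach the limit.

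H3K27ac was higher in the same lines at the start of HOPX and upstream of it. The peak over the gene start (chr4:56679509-56683811), which contains the window shown, had levels of 8.17 in naive cells, 8.18 in erCriz0, 9.72 in erAlec0 and 9.50 in erLor0. The most upstream peak (chr4:56693210-56699683) had the highest change of the 25, from 7.73 in naive cells to 9.30 in erAlec0, with 7.05 in erCriz0 and 8.63 in erLor0. Naive and erCriz0 cells were thus level at the gene start, and erCriz0 was lowest at the upstream peak. The lowest change, -1.20, was in erCriz0 at the intron peak chr4:56675196-56676473. Of the HOPX peaks 8 rose in erAlec0, where 24 of 25 were higher than in naive cells and 14.1% of all peaks rose. In erLor0 3 rose and 20 of 25 were higher, where 7.45% of all peaks rose. The erLor0 rises were at the gene start and at 2 neighbouring upstream peaks, chr4:56691205-56691797 and chr4:56691938-56693166, 9306 and 10039 bases from the gene. The median change was 0.94 in erAlec0 and 0.27 in erLor0, against 0.41 and 0.29 for other peaks within 5 Mb.

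**Figure D3:**
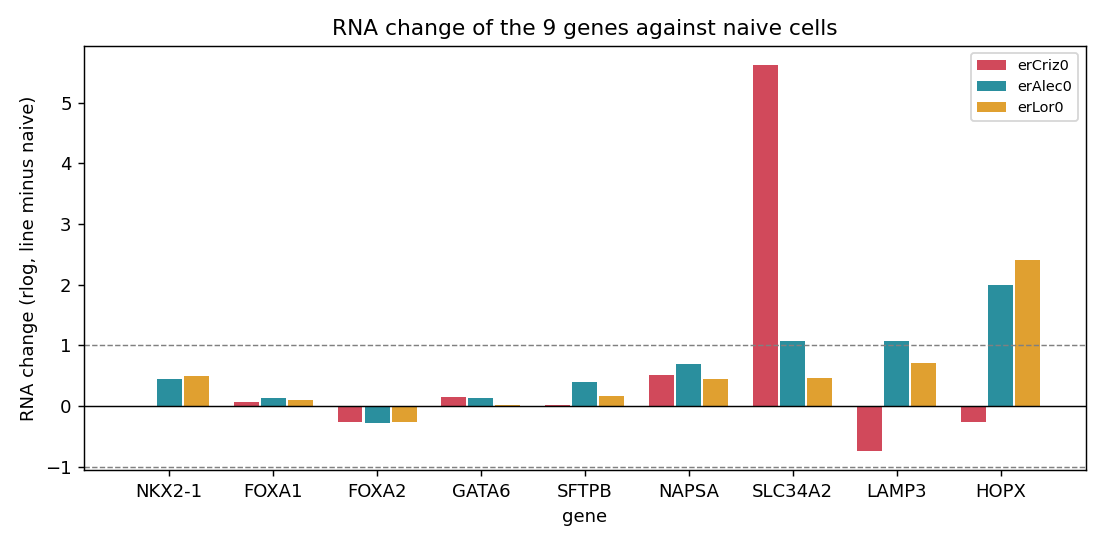
RNA change (rlog, line minus naive) of each gene in erCriz0, erAlec0 and erLor0, 1 bar per line, with dashed lines at 1 and -1. The tallest bar is SLC34A2 in erCriz0 (5.62), followed by HOPX in erLor0 (2.40) and erAlec0 (1.99), and no bar reaches -1.

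Counted together, the expressed genes that were up numbered 1 of 6 in erCriz0 (SLC34A2), 3 of 6 in erAlec0 (SLC34A2, LAMP3 and HOPX) and 1 of 6 in erLor0 (HOPX). Of all 12701 expressed genes the shares that were up were 2.65%, 2.46% and 1.10% in these lines. None of the 6 was down in any line, and the shares of all expressed genes that were down were 1.65%, 2.07% and 0.740%. In erCriz0, erAlec0 and erLor0 the median changes of the 9 genes were 0.02, 0.45 and 0.44, beside -0.02, 0.00 and -0.00 for all expressed genes. Over the 6 expressed genes alone they were 0.03, 0.76 and 0.48. With 6 genes, 1 library a line and naive cells shared by the 3 comparisons, these are counts and not tests. The genes were chosen with earlier results of these data known, so the shares of all expressed genes are no independent yardstick for them.

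The 92 paired peaks included 9 that rose in erCriz0 (9.78%), 21 that rose in erAlec0 (22.8%) and 4 that rose in erLor0 (4.35%). Among all 126470 peaks the shares that rose were 7.00%, 14.1% and 7.45%. The peaks that fell numbered 1, 2 and 2 of the 92, where 5.94%, 9.41% and 8.82% of all peaks fell. Peaks of a gene lie side by side, the genes were chosen with earlier results known, and these differences in share were not tested. The 21 that rose in erAlec0 were 8 peaks of HOPX, 7 of LAMP3, 3 of NKX2-1 and 3 of GATA6.

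**Figure D4:**
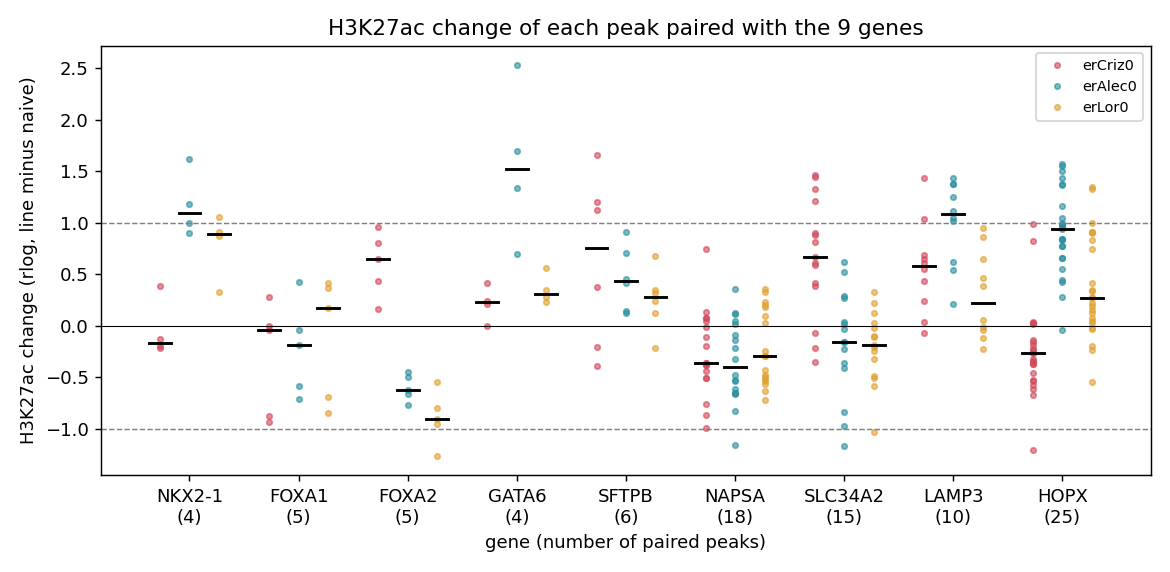
H3K27ac change (rlog, line minus naive) of every peak paired with each gene, by line, 1 point per peak, with a black bar at the median and dashed lines at 1 and -1. In erAlec0 the medians of NKX2-1 (1.09), GATA6 (1.52) and LAMP3 (1.08) lie above 1 (each is under 1 in an alternative, GATA6 and LAMP3 less the regional median and NKX2-1 with quantile normalization), and those of FOXA2 are above 0 in erCriz0 and below 0 in the other lines.

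RNA and H3K27ac did not move by like amounts. SLC34A2 in erCriz0 paired an RNA change of 5.62 with a median peak change of 0.66. GATA6 in erAlec0 paired an RNA change of 0.13 with a median peak change of 1.52. HOPX paired 1.99 with 0.94 in erAlec0, and 2.40 with 0.27 in erLor0. These medians cover peaks of unlike change: the HOPX start peak changed by 1.33 in erLor0, and the GATA6 start peak by 0.70 in erAlec0. Withdrawal of inhibitor is stated for the RNA only, and its part in these differences was not tested.

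**Figure D5:**
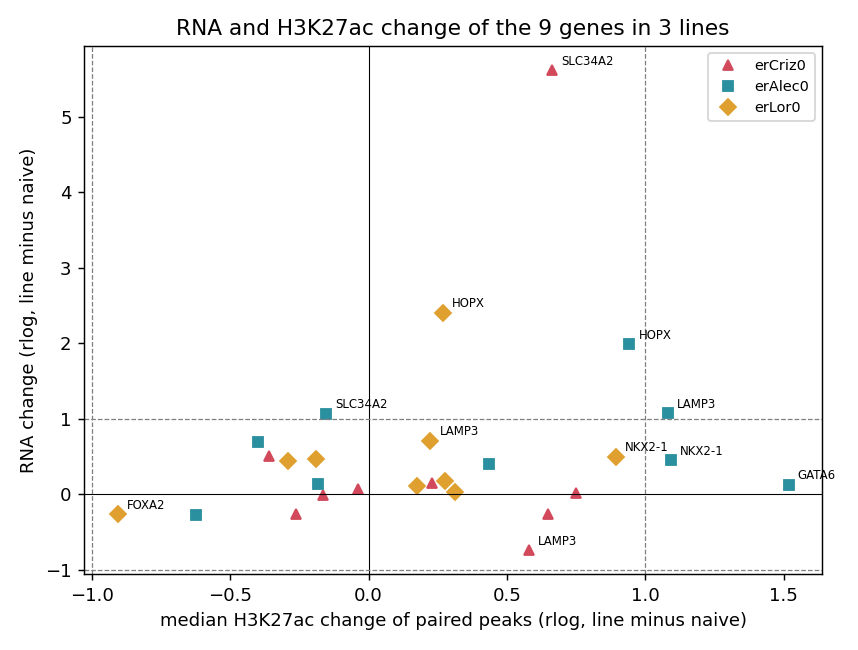
RNA change against the median H3K27ac change of paired peaks (both rlog, line minus naive), 1 point per gene and line, with dashed lines at 1 and -1. SLC34A2 in erCriz0 lies highest (5.62 against 0.66) and GATA6 in erAlec0 farthest right (1.52) at an RNA change of 0.13.

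For SLC34A2, LAMP3 and HOPX, whose RNA spanned at least 1 over the 4 lines, the genes most alike in RNA change were sought. For each, the 3 expressed genes whose largest difference in change over the 3 lines was smallest are named. For SLC34A2 they were SERPINB4, SERPINB3 and IFI16, with largest differences of 0.30, 0.67 and 0.73. LAMP3 was closest to PLEKHG4B (0.13) and to the nuclear receptors NR4A1 (0.17) and NR4A3 (0.17). For HOPX they were CECR2 (0.63), SCN4A (0.64) and MSLN, which encodes mesothelin (0.75). SERPINB4, SERPINB3, IFI16 and MSLN lay under the expression limit of 4.64 in naive cells, at 4.37, 3.72, 4.44 and 3.96. They count as expressed through other lines, so their likeness rests partly on low values.

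The other alveolar type 2 genes formed a list with no call in any line. Of all expressed genes 2.65%, 2.46% and 1.10% were up in erCriz0, erAlec0 and erLor0, and 1.65%, 2.07% and 0.740% were down. The absence of calls among 7 expressed genes is near these shares. Of 15 identifiers on that list, 7 were expressed, and LPCAT1, a lipid-remodelling enzyme of surfactant synthesis, had the highest mean with ETV5 and CTSH next. LPCAT1 RNA was 9.95 in naive cells, 10.20 in erCriz0, 10.57 in erAlec0 and 10.82 in erLor0. ETV5 stood at 10.13, 9.90, 10.06 and 10.22, and CTSH, a protease, at 8.16, 7.49, 8.55 and 8.72. SFTPC, the surfactant protein that defines type 2 cells most strictly, was listed at 0 in all 4 libraries. ABCA3, the lipid transporter of lamellar bodies, was expressed at 6.94, 6.63, 7.66 and 6.83 in naive, erCriz0, erAlec0 and erLor0 cells. Type 2 markers were thus mixed: SLC34A2, LAMP3 and ABCA3 were expressed, and SFTPC, SFTPB and NAPSA were not.

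Of 12 other type 1 identifiers 6 were expressed, and only GPRC5A was called: its RNA was 11.13 in naive cells, 11.35 in erCriz0, 13.13 in erAlec0 and 12.25 in erLor0. GPRC5A was thus up in the same 2 lines as HOPX, erAlec0 and erLor0, where 2.46% and 1.10% of all expressed genes were up. EMP2 and CAV2 were the next most abundant. EMP2 RNA changed by -0.69, -0.88 and -0.64 in erCriz0, erAlec0 and erLor0, and CAV2 RNA by 0.55, 0.37 and 0.51, all inside the limits. The other expressed genes of the list were inside them too. In erAlec0 and erLor0 RTKN2 changed by -0.39 and -0.29, AGER by 0.07 and 0.02, and CAV1 by 0.60 and 0.62. Of 8 markers of non-epithelial cells 1 was expressed, and PTPRC was listed at 0. The expressed one was the collagen gene COL1A1 at 9.49 to 10.08, above the median of expressed genes (8.14 in naive cells). The summed level of the list, 9.52 in naive cells and 9.74 to 10.10 in the resistant lines, was close to that of COL1A1 alone. The part of non-epithelial markers in the results was not tested.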

How the data were processed

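RNA-seq and H3K27ac ChIP-seq of 4 lines, 1 library each, were taken from 1 deposited table of 295240 peak and gene pairs. The deposited values are log2-scale rlog values, made by the authors with DESeq2 from gene counts (HISAT2 and HTSeq-count, hg38, strandedness checked with RSeQC) and from reads in merged MACS2 peaks (BWA, duplicates removed, mapping quality of at least 25, q of 0.05, featureCounts). The rlog transform shrinks differences of low genes. Read depth is unknown, so no counting interval is given. The table also holds the authors' correlations of each pair with p and adjusted p values, which were not used. The other 4 of 8 samples, among them the further resistant lines erCriz1 and erLor1, are not analysed here.

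Samples were grouped by the line in their labels. Values were read with Python 3.11.15, numpy 2.4.6 and pandas 2.3.3, and figures drawn with matplotlib 3.10.9. Changes are line minus naive, with limits of 1 and -1. No test was possible with 1 library a line. The calls and the quantile step were tested on simulated data. Gene positions are from the table, places and symbols from GENCODE 44.

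Named genes were the 9 genes, listed marker genes past the limit or among the 3 most abundant of their list, the 3 genes most alike to each gene with a range of at least 1, and each gene's peaks of largest rise and fall. SFTPC, ABCA3 and PTPRC fall outside this rule and were named as defining markers after their values were seen. AGER, CAV1 and RTKN2 were named to complete the expressed type 1 list. GATA6's 235-base peak and other peaks described were named for their place or sequence. The genes and lists were chosen with earlier results of these data known. Alternatives were centring, quantile normalization, other limits, peak filters, and subtraction of the regional median. A subtraction of the trend with peak level was added after seeing the data.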

Additional observations from a re-analysis of the deposited data

Results flagged for a closer look

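The peaks of FOXA2 moved one way in erCriz0 and the other way in erAlec0 and erLor0, with median H3K27ac changes over its 5 peaks of 0.65, -0.62 and -0.91. LAMP3 RNA likewise had changes of -0.74 in erCriz0, 1.07 in erAlec0 and 0.71 in erLor0. Both were singled out because lines moved in opposite directions by at least 0.5. The difference between lines was not tested, since each line had 1 library, and the naive library is shared by the 3 changes.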

How the results depend on the processing

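Of 348 values recomputed under alternatives, 299 stayed within 0.25 of the reported value on the same side of the limits (or within 1.5 times, for counts), 49 moved, and no value past a limit changed sign. Of 336 changes, 19 did change sign, all of them reported at a size of 0.28 or less. Without replicates or counts, 0.25 is a convention and not a measured error. Under a 1.5-fold limit, 2 genes were up in erLor0 (LAMP3 and HOPX) and 1 was down in erCriz0 (LAMP3). Under a 4-fold limit 0 were up in erAlec0. With the 15 peaks paired with 1 gene only, the median peak change in erAlec0 was 0.980, against 0.42. SLC34A2 in erCriz0 and HOPX in erLor0 passed every limit tried. Quantile normalization covered expressed genes, and genes below them were carried along by the shift at its lowest value: FOXA2 and SFTPB RNA in erCriz0 then moved to -1.01 and -0.72, from -0.26 and 0.02. The other 52 RNA values of single genes stayed as reported. The 3 erAlec0 medians above 1 fell under it in an alternative: less the regional median GATA6 came to 0.88 and LAMP3 to 0.95, and with quantile normalization NKX2-1 came to 0.93. Less the regional median, the HOPX peaks in erLor0 had a median change of -0.02 and the start peak one of 1.04, and the GATA6 start peak in erAlec0 had one of 0.06. No paired analysis was possible because each line had 1 library. Low peaks and the 3 genes under the expression limit are the least certain, since the depth behind them is unknown.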

Other observations

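Among airway genes, 5 of 11 identifiers were expressed, led by the secreted mucin MUC5B, whose RNA was 13.77 in naive cells, 14.01 in erCriz0, 14.48 in erAlec0 and 14.27 in erLor0. MUC5AC, a second secreted mucin, stood at 12.80, 12.89, 13.47 and 13.52, and SOX2 at 7.70, 7.79, 7.44 and 7.33. The secretoglobin SCGB3A1 was down in erAlec0 with a change of -1.09, from 5.04 to 3.95. While mucin RNA was higher in erAlec0, the median H3K27ac change of peaks paired with MUC5B and MUC5AC was -1.07 and -1.05 there.

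Among genes of gut and liver endoderm, 6 of 13 identifiers were expressed. The trefoil factor genes were down in erCriz0: TFF1 by a change of -1.29, from 10.16 to 8.87, and TFF3 by -1.90, from 8.76 to 6.86. TFF3 was also down in erLor0, with a change of -1.25. HNF4G was up in erCriz0 with a change of 1.06, from 7.15 to 8.21. SOX9, the most abundant factor of the list, stood at 10.40 in naive cells, 9.85 in erCriz0, 10.23 in erAlec0 and 9.71 in erLor0.

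Word densities in the peaks of single genes are given as a description. Of the 54 densities of 6 words in the peaks of 9 genes, 22 lay above the density over all peaks and 32 below it. Examples from both sides follow, chosen after the values were seen. SFTPB peaks held 2.14 CTCAAG per kb against 0.758 over all peaks, and SLC34A2 peaks 1.22 CAAGTG per kb against 0.688, while NKX2-1 peaks held 0.346 TGTTTAC per kb against 0.153. NAPSA peaks held no TGTTTAC and 0.215 AGATAA per kb against 0.556, and GATA6 peaks 0.177 CAAGTG per kb. The SFTPB value rests on 7 matches in 3.274 kb.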
